A study of Mus musculus with 91 samples.

Results

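The aryl hydrocarbon receptor (AhR) is a ligand-activated transcription factor that binds planar aromatic chemicals, moves to the nucleus, pairs with ARNT and binds DNA at xenobiotic response elements. Its best known targets in liver are the cytochrome P450 genes Cyp1a1, Cyp1a2 and Cyp1b1, whose enzymes oxidise aromatic hydrocarbons, arylamines and oestrogens. A further pair of targets, Tiparp and Ahrr, feed back on the receptor: Tiparp encodes an ADP-ribosyltransferase that represses AhR activity, and Ahrr encodes the AhR repressor, which competes for ARNT. These 5 genes were taken by symbol from the platform annotation, and they are 5 of the 18193 genes that could be named by at least 1 probe set. They are covered by 9 of the 34945 probe sets that carry a single gene symbol: 1 each for Cyp1a1, Cyp1a2 and Ahrr, and 3 each for Cyp1b1 and Tiparp. Where a gene has several, the brightest on average stands for it.

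Livers of 91 adult male mice on a C57BL/6J background were measured on Affymetrix arrays, 1 array per mouse, after 28 or 56 days of exposure to chemicals that the series title calls carcinogenic and non-carcinogenic. There were 19 groups, 15 of 5 mice and 4 of 4 mice, and the mice are numbered here by the replicate number in their titles. Mice of the strain labelled C57BL/hCAR/hPXR, named for the human receptors CAR and PXR, received CITCO, a ligand of human CAR, at 10 mg/kg daily by intraperitoneal injection for 28 days, and their controls of the same strain received carboxymethylcellulose (CMC). All other mice were labelled C57BL. CITCO at the same dose was set against the CMC cohort Co4. Phenobarbital (PB) at 0.05% w/v in drinking water for 28 or 56 days was set against plain water (H2O) for the same time. Cyproterone acetate (CPA) at 160 mg/kg and 1,4-dichlorobenzene (DCB) at 600 mg/kg, both by gavage for 28 days, shared 1 group of corn oil (CO) controls. Piperonyl butoxide (PBO), a synergist added to insecticides, at 600 mg/kg by intraperitoneal injection was set against CMC cohort Co2 in 4 treated mice. Wy-14643 (WY), an activator of PPAR-alpha, and pioglitazone (Pio), an activator of PPAR-gamma, were each given at 100 mg/kg by gavage and set against cohorts Co1 and Co5. Methapyrilene (MePy), an antihistamine, was given at 1000 ppm in food and set against Co3, a cohort that the labels nevertheless give as CMC. Cohorts Co1, Co3 and Co5 held 4 mice each. The titles of the PB mice at 28 days end in "(2)", which the labels do not explain.

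In all arrays 8 measured hepatocyte marker genes were among the brightest, with a mean log2 value per mouse between 13.94 and 14.45. Before any of the 5 genes was considered, values of other genes raised doubt about the labels of 2 groups. Whether these labels are wrong was not tested. In the 5 livers labelled Pio, Cyp2b10, the standard target of CAR, stood between 10.93 and 12.23, against 5.27 to 5.82 in Co5, while Fabp4 averaged 7.27 ± 0.40 and Cidec 4.10 ± 0.16, against 7.60 ± 0.57 and 4.70 ± 0.66 in Co5 (SD, n = 5 and 4). In the livers labelled MePy, Fabp4 averaged 10.34 ± 2.13 and Cidec 7.11 ± 1.67, against 6.97 ± 0.39 and 4.56 ± 0.36 in Co3, and mouse 4 was the exception with 7.44 and 4.17. Fabp4 and Cidec, known targets of PPAR-gamma, were chosen after their values had been seen. Both groups are therefore called "livers labelled Pio" and "livers labelled MePy" throughout, and no direction below is tied to those compounds. The replicates are separate animals by their labels, and the number of arrays limits the precision.

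RefSeq (GRCm38.p6) places Cyp1a1 at chr9:57687928-57703824 on the plus strand and Cyp1a2 at chr9:57676937-57683655 on the minus strand, so they are transcribed away from each other, and the starts used here lie 13958 bases apart. Cyp1b1 lies on chromosome 17 (79706940 to 79715061, minus strand), Tiparp on chromosome 3 (65528447 to 65555518, plus strand) and Ahrr on chromosome 13 (74211118 to 74292331, minus strand). The 250 bases before each transcription start were searched for the core of the xenobiotic response element, GCGTG, or CACGC on the other strand; no matches overlapped. The windows of Cyp1a1 and Cyp1a2 are printed because the results turn on these genes, and that of Ahrr because it held the most cores, with each core in capitals. All 3 run 5′ to 3′ along the gene's own strand and end at the base before its start: chr9:57697363-57697612 (plus) for Cyp1a1, which lies inside the annotated span of the gene because other transcripts start further upstream, chr9:57683656-57683905 (minus) for Cyp1a2 and chr13:74292332-74292581 (minus) for Ahrr.
Cyp1a1: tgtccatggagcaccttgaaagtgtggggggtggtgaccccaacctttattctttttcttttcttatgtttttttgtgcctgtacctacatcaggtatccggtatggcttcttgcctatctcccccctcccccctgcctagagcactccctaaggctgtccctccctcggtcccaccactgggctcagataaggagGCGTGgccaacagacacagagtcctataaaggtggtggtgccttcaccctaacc
Cyp1a2: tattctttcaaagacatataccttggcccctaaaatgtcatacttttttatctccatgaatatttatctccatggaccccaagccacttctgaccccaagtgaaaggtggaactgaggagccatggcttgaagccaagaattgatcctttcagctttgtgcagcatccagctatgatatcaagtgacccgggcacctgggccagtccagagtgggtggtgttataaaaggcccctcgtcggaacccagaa
Ahrr: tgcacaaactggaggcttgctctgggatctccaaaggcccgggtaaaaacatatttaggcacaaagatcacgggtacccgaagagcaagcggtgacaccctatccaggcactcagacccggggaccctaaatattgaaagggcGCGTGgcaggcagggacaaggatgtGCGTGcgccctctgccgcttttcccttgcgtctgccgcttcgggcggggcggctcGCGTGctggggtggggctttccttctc
Cyp1a1 had 1 core, beginning 54 bases before the start. Ahrr had 3, at 107, 82 and 27 bases, and Cyp1b1 and Tiparp had 1 each on the other strand, at 76 and 170 bases. Cyp1a2 had none, which says only that these letters are not in this window. At least 1 core occurred in 28.2% of the 32851 promoter windows of this length, at least 2 in 8.63% and at least 3 in 2.77%. A match is a description of the sequence and not a measured binding site.

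The 5 genes differed widely in level. Cyp1a2 averaged 12.96 on the deposited log2 scale over all arrays, above 99.0% of genes, and Tiparp averaged 7.67, above 67.5%. Cyp1a1 averaged 5.54 (above 40.7% of genes), Cyp1b1 5.37 (38.3%) and Ahrr 3.69 (6.89%). Probe sets bind with different strength, so these ranks place each probe set among all others and do not compare transcript amounts between genes. No detection call was used, and a change in Cyp1a1, Cyp1b1 or Ahrr that a dim signal hides cannot be seen.

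Cyp1a2, which makes the enzyme that oxidises caffeine and arylamines and is known to be concentrated in hepatocytes around the central vein, was the gene with most changes. It rose with PB at both times, with DCB and with PBO, and fell with WY, each by an adjusted p under 0.05 in a limma fit over all 91 arrays with Benjamini-Hochberg adjustment over all genes. Cyp1a1 passed that threshold in PBO livers alone. Cyp1b1, Tiparp and Ahrr passed it in none of the 10 comparisons of a treated group with its control.

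**Figure D1:**
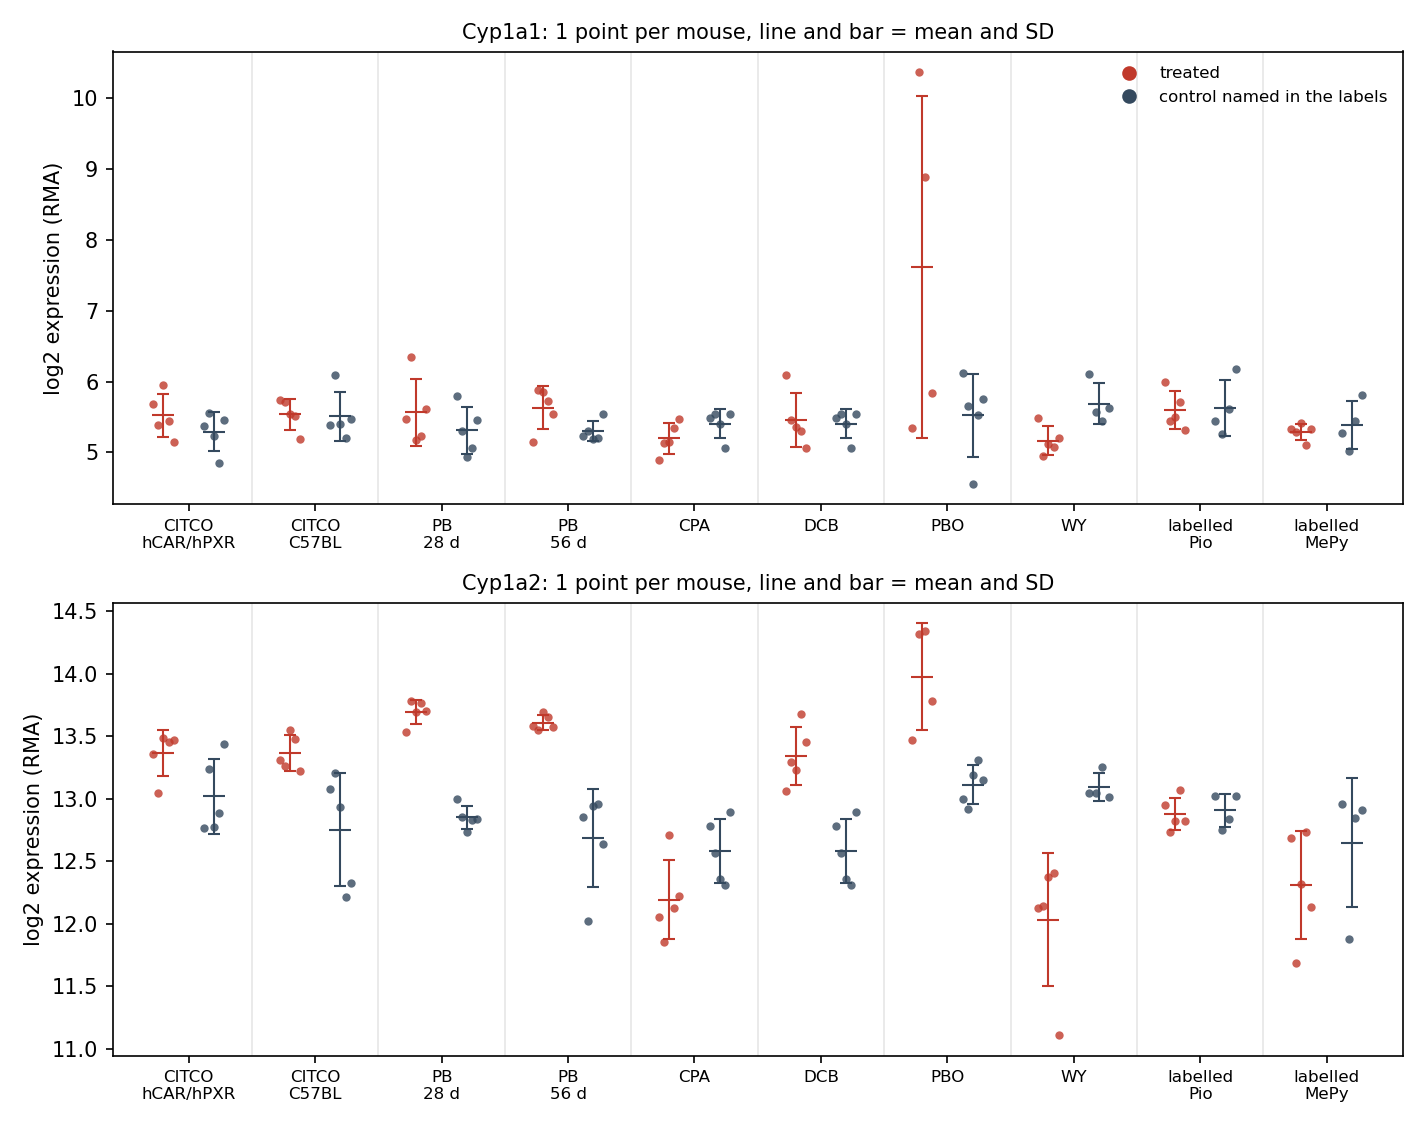
Log2 expression of Cyp1a1 (upper panel) and Cyp1a2 (lower panel) in each mouse, treated groups in red to the left of the control named in the labels in blue, with the mean and SD as line and bar (n = 4 or 5). Cyp1a2 lies wholly above its controls in the PB, DCB, PBO and C57BL CITCO groups and wholly below them in the WY group. The difference in the C57BL CITCO group did not pass the threshold. Cyp1a1 leaves the common band only in 2 PBO mice, at 10.37 and 8.89.

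With PB at 28 days Cyp1a2 was 13.53, 13.78, 13.69, 13.77 and 13.70 in mice 1 to 5, against 13.00, 12.86, 12.74, 12.83 and 12.84 in the H2O mice. Every PB liver was above every H2O liver. The log2 difference was 0.84 ± 0.18 (SE; limma adjusted p = 0.00488), a 1.79-fold rise with a 95% interval of 1.39 to 2.31. Cyp1a2 was the only 1 of the 5 genes to pass, where 0.967% of all genes did, and 3.85% of all genes had groups that did not overlap.

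At 56 days the PB livers held 13.58, 13.55, 13.69, 13.65 and 13.58, against 12.86, 12.02, 12.95, 12.96 and 12.64 in H2O livers. The groups again did not overlap, and the PB mice lay within a narrow band (SD 0.06) beside a wider control group (SD 0.39). The mean over the 11 CAR targets was 10.82 to 11.22 in PB livers, against a median of 7.96 in H2O livers, among which mouse 5 stood apart at 9.64. The Cyp1a2 value of that mouse, 12.64, lay inside the control range, and without it the Cyp1a2 difference was 0.92 (limma adjusted p = 0.00434). Cyp1a2 rose by 0.93 ± 0.18 on the log2 scale (limma adjusted p = 0.00125), or 1.90-fold (1.48 to 2.45). It was 1 of 5 genes called against 0.566% of all genes, and 2.99% of all genes had groups that did not overlap. The response at 56 days minus that at 28 days was 0.08 ± 0.26 (adjusted p = 0.999; 95% interval -0.43 to 0.60), so the times did not differ beyond their error, and a difference of up to 0.60 in log2 is not excluded by it. None of the 5 genes passed for a difference in response between the times, and 0% of all genes did.

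With DCB the 5 livers had Cyp1a2 at 13.06, 13.29, 13.23, 13.68 and 13.45, against 12.78, 12.57, 12.36, 12.31 and 12.89 in the CO livers. All DCB mice were above all CO mice. The difference was 0.76 ± 0.18 in log2 (limma adjusted p = 0.00523), a 1.69-fold rise (1.32 to 2.18), and Cyp1a2 was the only 1 of the 5 genes called, where 3.83% of all genes were, while 4.28% of all genes had groups that did not overlap. Of 8 hepatocyte markers 3 fell with DCB (Apoa1, Ahsg and F2), with a list mean per mouse of 13.97 to 14.32, against 14.30 to 14.42 in CO, and the part of this in the Cyp1a2 rise was not tested. In CPA livers, set against those same CO mice, Cyp1a2 was 12.06, 11.86, 12.71, 12.13 and 12.22. Of these, 4 lay below every CO mouse and mouse 3 lay among them. The log2 difference of -0.39 ± 0.18 did not pass (adjusted p = 0.241), and 0 of the 5 genes passed in CPA livers, where 5.32% of all genes did.

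The direct comparison of CPA with DCB, which needs no control, gave a Cyp1a2 difference of -1.15 ± 0.18 (limma adjusted p = 4.61e-06). CPA livers averaged 12.20 ± 0.32 and DCB livers 13.34 ± 0.23 (SD, n = 5 each), a level 2.22-fold lower with CPA, and no CPA mouse reached a DCB mouse. It was 1 of 5 genes called, against 4.11% of all genes, and 3.17% of all genes had groups that did not overlap. The 2 compounds were given by the same route but at different doses. In the same direct comparison 9 of 25 acute phase genes were higher in CPA livers and 0 lower, and 0 of 12 genes of the circadian clock were called. Against the CO controls, 2 of 12 clock genes rose and 6 fell in CPA livers, and 1 rose and 1 fell in DCB livers. Acute phase genes rose in 6 of 25 cases in CPA livers and fell in 5 of 25 in DCB livers, each against CO. The part of either list in the Cyp1a2 values was not tested.

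In WY livers Cyp1a2 was 12.13, 12.15, 12.38, 12.40 and 11.11, against 13.05, 13.05, 13.26 and 13.01 in the Co1 mice. All 5 WY mice lay below all 4 controls, mouse 5 far below. The difference was -1.06 ± 0.19 (limma adjusted p = 5.73e-05), a level 2.08-fold lower than in Co1, and without mouse 5 it was -0.83 (adjusted p = 0.00219). Cyp1a2 was the only 1 of the 5 genes called, against 10.6% of all genes, and groups did not overlap in 9.17% of all genes. Macrophage markers rose in 7 of 12 cases in WY livers, with a list mean per mouse of 7.33 to 8.56, against 6.61 to 7.20 in Co1, and acute phase genes in 5 of 25. Of 8 hepatocyte markers 1 fell (Apoh), and the list averaged 14.06 to 14.21 per mouse with WY, against 14.16 to 14.28 in Co1. The part of these lists in the fall of Cyp1a2 was not tested, and in whole liver RNA fewer cells of a type and less RNA per cell cannot be told apart.

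In PBO livers Cyp1a2 was 13.47, 14.32, 14.34 and 13.78, against 13.00, 12.92, 13.19, 13.31 and 13.15 in Co2. The groups did not overlap, and mice 2 and 3 held the highest values of all 91 livers. Cyp1a2 rose by 0.86 ± 0.19 in log2 (limma adjusted p = 0.0098), or 1.82-fold (1.39 to 2.38). The call was lost without mouse 3 (0.74, adjusted p = 0.0931), with array weights (0.72, adjusted p = 0.114) and with only the PBO and Co2 mice in the fit (adjusted p = 0.0817). Only in PBO livers did 2 of the 5 genes pass, where 0.808% of all genes did, since Cyp1a1 was called as well, and 2.51% of all genes had groups that did not overlap. Of the hepatocyte markers 2 of 8 fell in PBO livers (Ahsg and F2), with a list mean per mouse of 13.97 to 14.09, against 14.11 to 14.32 in Co2, and its part in these values was not tested.

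Cyp1a1, the enzyme gene known for very low expression in untreated liver and strong induction by AhR ligands, was 5.35, 10.37, 8.89 and 5.85 in PBO mice 1 to 4, against 6.12, 5.65, 4.56, 5.53 and 5.76 in Co2. Mice 2 and 3 were far above every control (4.85 and 3.37 above the control mean in log2), and mice 1 and 4 lay within the range of the controls. The mean difference was 2.09 ± 0.38 in log2 (limma adjusted p = 0.000371), a 4.26-fold rise (2.53 to 7.16) in measured signal. The signal of the controls was not shown to be above background, so no fold of transcript follows from it. The fit shares its estimate of spread over all groups, while the SD within the PBO group was 2.41. An exact permutation test of the 4 against 5 mice over its 126 splits, two-sided and added after the data had been seen, gave p = 0.0952 for Cyp1a1 and p = 0.00794, the smallest it can give, for Cyp1a2. Leaving out mouse 2 lowered the Cyp1a1 difference to 1.17 (limma adjusted p = 0.0414), leaving out mouse 3 to 1.66 (adjusted p = 0.0245), and leaving out mouse 1 raised it to 2.85. With only the PBO and Co2 mice in the fit Cyp1a1 did not pass (adjusted p = 0.664).

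The same PBO mice differed in genes outside the AhR set. Cyp2b10 was 6.07, 11.89, 8.06 and 7.07 in mice 1 to 4, against a mean of 5.58 ± 0.41 in Co2 (SD, n = 5). Cyp2c55, another target of CAR, was 8.10, 13.03, 10.90 and 9.41, and Gstm3, a glutathione S-transferase, was 11.84, 14.48, 13.60 and 12.29. In these 3 genes mouse 2 was highest, followed by mice 3, 4 and 1. Cyp1a1 had that order too, but its values in mice 4 and 1 lay within the range of the controls. How many of all genes had that order was not counted. Cyp2c55 and Gstm3 were named after their values had been seen. Ugdh, at 12.00, 12.70, 12.61 and 12.33, and the P450 gene Cyp3a11, at 14.82, 14.97, 14.96 and 14.86, had that order as well. Other genes had other orders: Nqo1 was 6.83, 7.60, 6.53 and 7.34 in mice 1 to 4, and Cd36 was 9.68, 10.80, 9.69 and 9.84. Cyp1a2 differed in that mice 2 and 3 were level, at 14.32 and 14.34. The acute phase list averaged 11.51, 13.08, 12.00 and 11.85 in mice 1 to 4, against 11.49 to 12.24 in Co2, so mouse 2 was above all controls in this list too. The labels give no dose or intake per mouse, and the reason for the spread was not tested.

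**Figure D2:**
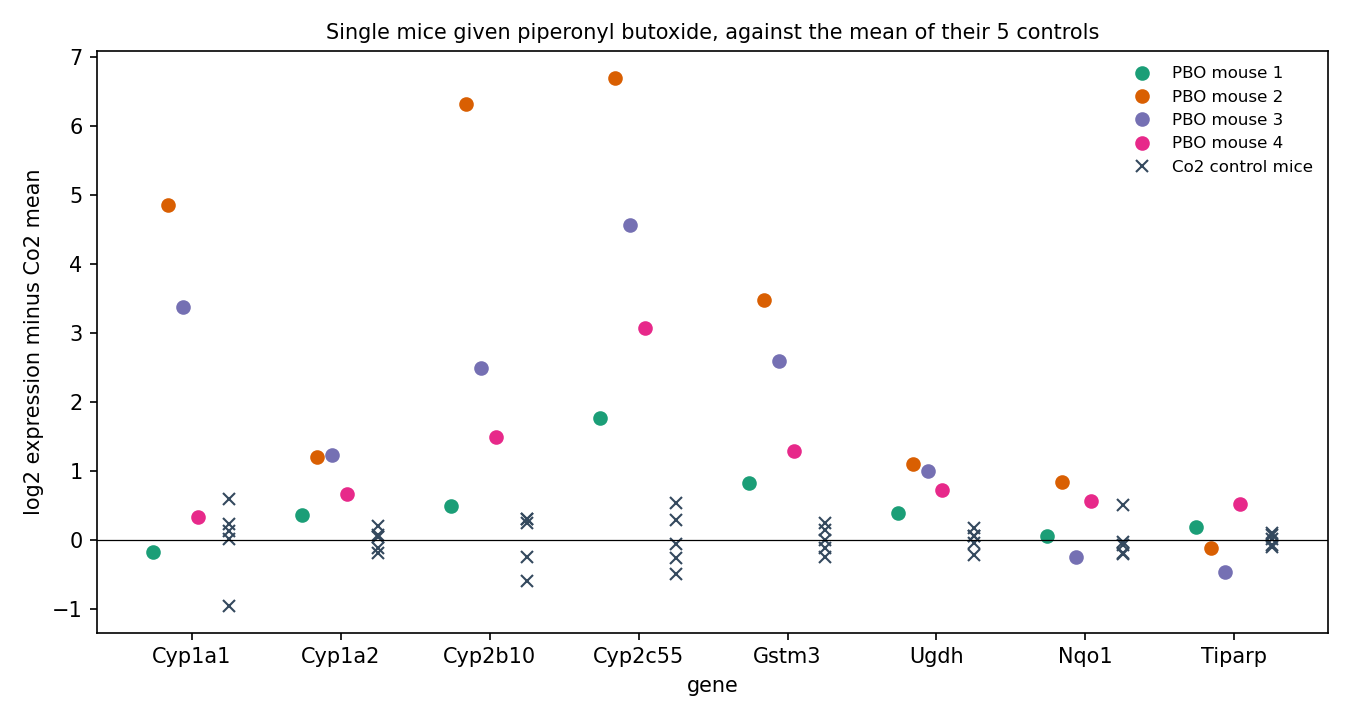
Log2 expression minus the mean of the 5 Co2 control mice for 8 genes, with each of the 4 PBO mice as a coloured point and each Co2 mouse as a cross. PBO mice 2 and 3 lie at 4.85 and 3.37 for Cyp1a1 while mice 1 and 4 lie at -0.18 and 0.32 among the crosses, and Tiparp shows no such separation.

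In the other 9 treated groups Cyp1a1 stayed in a narrow band. The lowest of their means was 5.16 ± 0.20 in WY livers, against 5.69 ± 0.29 in Co1, and the highest was 5.63 ± 0.30 in PB livers at 56 days, against 5.30 ± 0.14 in H2O. Neither difference passed: -0.52 ± 0.38 with WY (limma adjusted p = 0.396) and 0.33 ± 0.35 with PB (adjusted p = 0.989). For PB at 28 days and DCB, where Cyp1a2 rose, the Cyp1a1 differences were 0.26 (95% interval -0.45 to 0.96) and 0.05 (-0.65 to 0.76). With PB at 28 days the interval left room for a change of the size seen in Cyp1a2 (0.84). With DCB it ended at about the size of the Cyp1a2 change (0.76). The spread behind both intervals is shared over all groups, among them PBO with an SD of 2.41. Within groups the Cyp1a1 SD was 0.47 with PB at 28 days, 0.34 in its H2O controls, 0.38 with DCB and 0.20 in CO. Intervals from these groups alone were not computed, so the room is that of the shared spread.

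**Figure D3:**
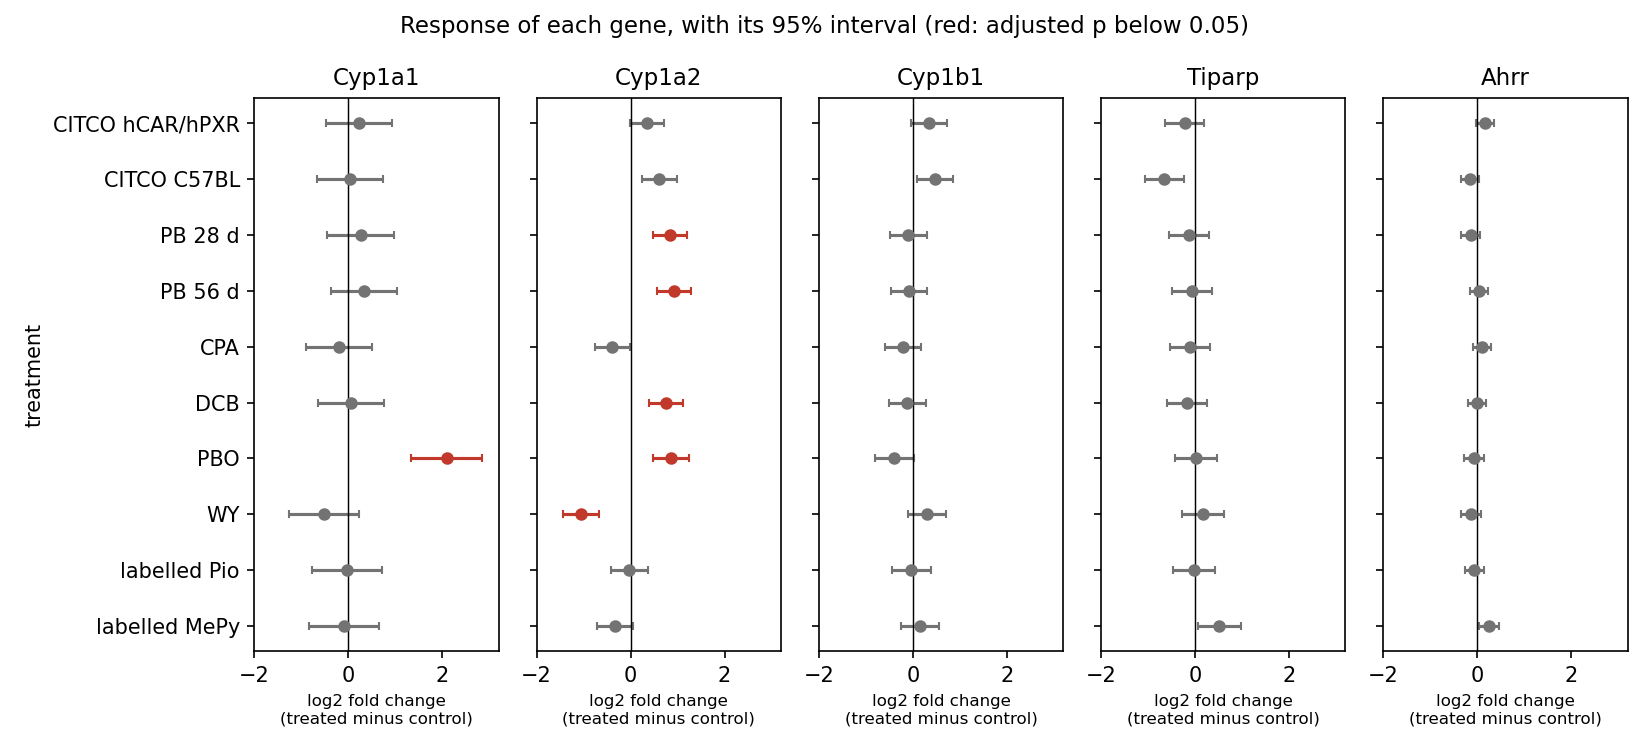
Log2 fold change (treated minus control) of each of the 5 genes in the 10 comparisons, with the 95% interval of the limma fit, in red where the adjusted p was below 0.05. Cyp1a2 is red in 5 rows, 4 to the right of 0 and WY to the left at -1.06, Cyp1a1 is red only for PBO at 2.09, and Cyp1b1, Tiparp and Ahrr have no red point.

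CITCO raised Cyp2b10 by 5.26 ± 0.47 in hCAR/hPXR livers (limma adjusted p = 7.38e-14), while its difference in C57BL livers was 0.42 ± 0.47 (adjusted p = 1). Cyp1a2 was 13.36, 13.05, 13.49, 13.45 and 13.47 in hCAR/hPXR mice given CITCO, against 12.76, 13.24, 12.78, 12.89 and 13.44 in their CMC controls. These groups overlapped, and the difference of 0.34 ± 0.18 did not pass (adjusted p = 0.739). In C57BL mice CITCO livers had 13.31, 13.26, 13.55, 13.48 and 13.22, against 13.08, 13.21, 12.94, 12.21 and 12.33 in Co4. Here every CITCO mouse was above every control, as in 1.03% of all genes, but the difference of 0.61 ± 0.18 did not pass either (adjusted p = 0.809).

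Of the 5 genes, 0 were called in hCAR/hPXR livers, where 0.0989% of all genes were, and 0 in C57BL livers, where 0.0055% were. The CITCO response in hCAR/hPXR minus that in C57BL was -0.27 ± 0.26 for Cyp1a2 (limma adjusted p = 1, 95% interval -0.79 to 0.25). None of the 5 genes passed for a difference in response between the strains, where 0.0055% of all genes did. Acute phase genes stood apart in both sets of controls. Their list mean per mouse was 11.83 to 12.25 in CITCO hCAR/hPXR livers, against 12.57 to 13.63 in the CMC mice of that strain, and 11.31 to 12.14 in CITCO C57BL livers, against 12.40 to 13.50 in Co4. None of the 25 genes passed on its own in either comparison. The part of this difference in the Cyp1a2 values was not tested. With the mean of the 5 C57BL CMC cohorts as control in place of Co4, the Cyp1a2 difference in CITCO C57BL livers was 0.46 and passed (limma adjusted p = 0.0245). Those cohorts differed from each other in 33.2% of all genes by a limma F test, so this control also carries differences between cohorts.

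In livers labelled Pio, Cyp1a2 was 12.95, 12.74, 12.82, 13.07 and 12.82, against 13.02, 12.75, 12.84 and 13.02 in Co5. The groups lay on top of each other, with a difference of -0.03 ± 0.19 (limma adjusted p = 0.988; 95% interval -0.41 to 0.36), although Cyp2b10 was higher by 6.06 ± 0.49 (adjusted p = 1.17e-15). In livers labelled MePy it was 12.69, 11.69, 12.32, 12.74 and 12.13, against 12.96, 11.88, 12.85 and 12.91 in Co3. Those groups overlapped too, and the difference of -0.34 ± 0.19 did not pass (adjusted p = 0.815). None of the 5 genes was called in either comparison, where 0.022% of all genes were in livers labelled Pio and 0.181% in livers labelled MePy. The 5 CMC cohorts differed from each other in 33.2% of all genes. Set against their mean, Cyp1a2 in livers labelled MePy was lower by -0.59 (limma adjusted p = 0.00183). Without Co3 mouse 2, the control at 11.88, the difference from Co3 was -0.59 as well but did not pass (adjusted p = 0.349).

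Cyp1a2 and Cyp2b10 did not move as a pair. Cyp2b10 rose by 7.93 and 6.98 with PB at 28 and 56 days, by 6.47 with DCB and by 2.70 with PBO, in all of which Cyp1a2 rose. It rose by 5.60 with CPA and by 6.06 in livers labelled Pio, where the Cyp1a2 differences were -0.39 and -0.03. CPA and DCB share their controls, so their values are not independent of each other. Of 11 known CAR targets, 11 rose with PB at 28 days, 9 with PB at 56 days, 8 with DCB and 4 each with CPA, PBO and CITCO in hCAR/hPXR livers. In livers labelled Pio 3 rose, with CITCO in C57BL livers 1 rose, and in livers labelled MePy 0 changed. With WY 2 rose and 2 fell, among them Cyp2c37 at -2.88 ± 0.34 (limma adjusted p = 3.56e-10).

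**Figure D4:**
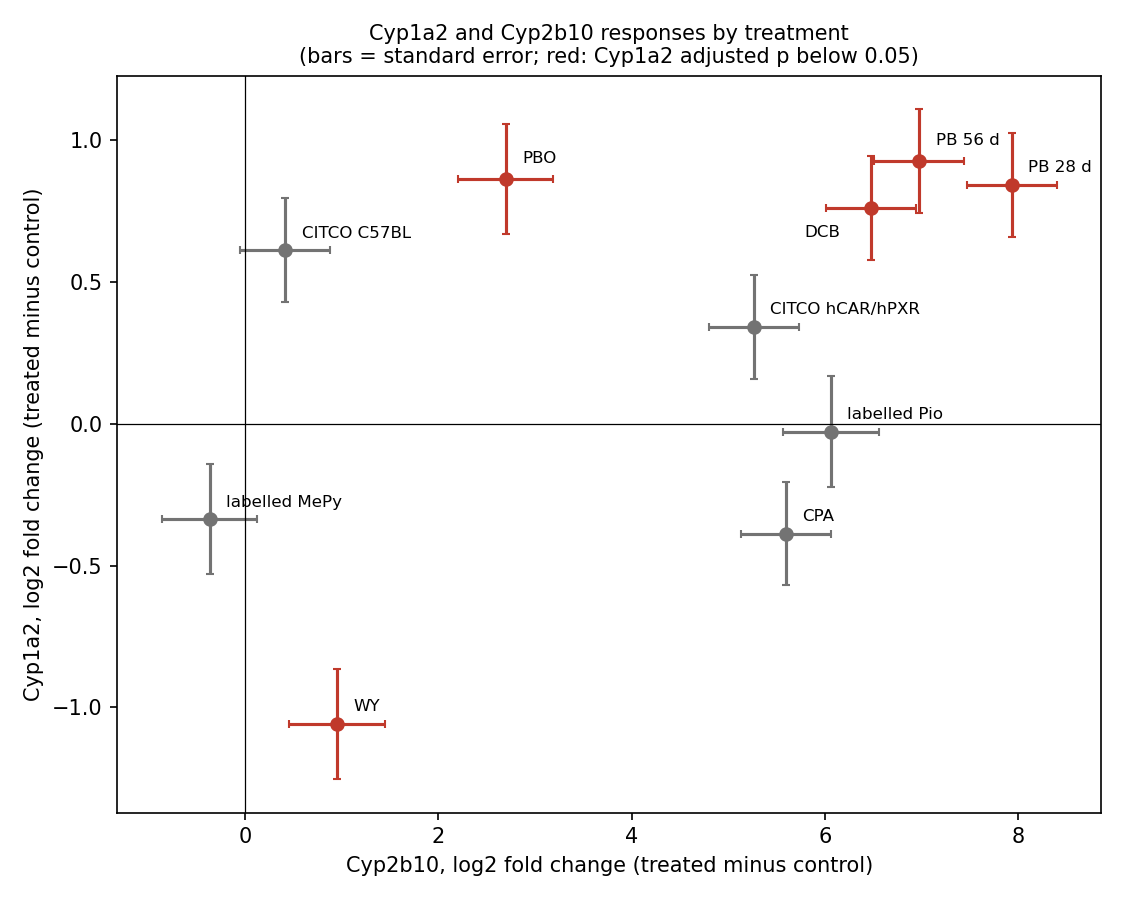
Log2 fold change (treated minus control) of Cyp1a2 against that of Cyp2b10 in the 10 comparisons, with standard errors as bars and in red where the adjusted p of Cyp1a2 was below 0.05. PB, DCB and PBO lie in the upper right with Cyp1a2 between 0.76 and 0.93, while CPA and the livers labelled Pio share the high Cyp2b10 change (5.60 and 6.06) at Cyp1a2 values of -0.39 and -0.03.

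Of 14 measured genes of the central zone of the liver lobule (perivenous genes), 0 rose in the 4 comparisons with a control in which Cyp1a2 rose. In DCB livers 4 fell, among them Glul, the glutamine synthetase of the innermost hepatocytes, by 1.06 ± 0.18 on the log2 scale (limma adjusted p = 3.42e-05). With PB at 56 days 1 fell (Oat, -0.81), and with PB at 28 days and PBO 0 were called. With WY, where Cyp1a2 fell, 3 fell as well (Oat, Gulo and Lect2). In CPA livers set directly against DCB livers, where Cyp1a2 was lower, 3 were higher (Glul, Oat and Slc1a2) and 1 was lower (Rgn). The median log2 difference over the list was -0.24 with PB at 28 days, -0.17 with PB at 56 days, -0.22 with DCB, -0.19 with PBO and -0.21 with WY, beside medians of all genes between -0.04 and 0.02. Cyp2e1, another P450 gene of the central zone, passed in none of the 10 comparisons.

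Over the 19 groups Cyp1a2 ran between 13.98 ± 0.43 in PBO livers and 12.03 ± 0.53 in WY livers. Below PBO came PB at 28 days (13.70 ± 0.10), PB at 56 days (13.61 ± 0.06), CITCO in C57BL (13.37 ± 0.14), CITCO in hCAR/hPXR (13.36 ± 0.18) and DCB (13.34 ± 0.23). The controls and the livers labelled Pio lay between 13.11 ± 0.16 (Co2) and 12.58 ± 0.26 (CO). Below them came the livers labelled MePy (12.31 ± 0.43), CPA (12.20 ± 0.32) and WY. Of the 18 gaps between neighbours in this order, 1 exceeded the larger SD of its pair, that between PB at 56 days and CITCO in C57BL. For Cyp1a1, Cyp1b1, Tiparp and Ahrr 0 of the 18 gaps did so.

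The genes whose 19 group means were most like those of Cyp1a2, among the 3142 other genes with an SD of group means of at least 0.3, were Cyp2c37 (Pearson r = 0.861), Cyp2c54 (0.846) and Dclk3 (0.765). For Cyp1a1 they were 3110021A11Rik (0.770), BC052040 (0.756) and Fam83f (0.751), and without the PBO group these fell to 0.396, 0.263 and 0.0321. The likeness to Cyp1a1 therefore rests on that group. These are descriptions over group means of arrays normalised together, chosen as the highest of all genes. Cyp1b1, Tiparp and Ahrr, whose likenesses are given below, had SDs of group means of 0.182, 0.226 and 0.0931, under that minimum. Their median SDs within groups were larger, at 0.270, 0.233 and 0.128, so those likenesses rest on small differences between groups.

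Cyp1b1, whose enzyme hydroxylates oestrogens and which is known mainly from cells other than hepatocytes, passed in no comparison of a treated group. Its log2 differences ran between -0.39 ± 0.21 with PBO (limma adjusted p = 0.434) and 0.48 ± 0.19 with CITCO in C57BL livers (adjusted p = 0.933). There the CITCO mice had 6.66, 5.47, 5.10, 5.31 and 4.94, against 4.83, 5.04, 5.05, 4.97 and 5.20 in Co4. Mouse 1 alone was far above, and without it the difference was 0.19. The other 2 probe sets of Cyp1b1 were dimmer, with means of 3.45 and 4.26, and neither showed that mouse as high: they read 3.45 and 3.88 in it. The genes most like Cyp1b1 over the 19 group means were Loxl1 (r = 0.770), Col6a1 (0.709) and Ddr1 (0.703).

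**Figure D5:**
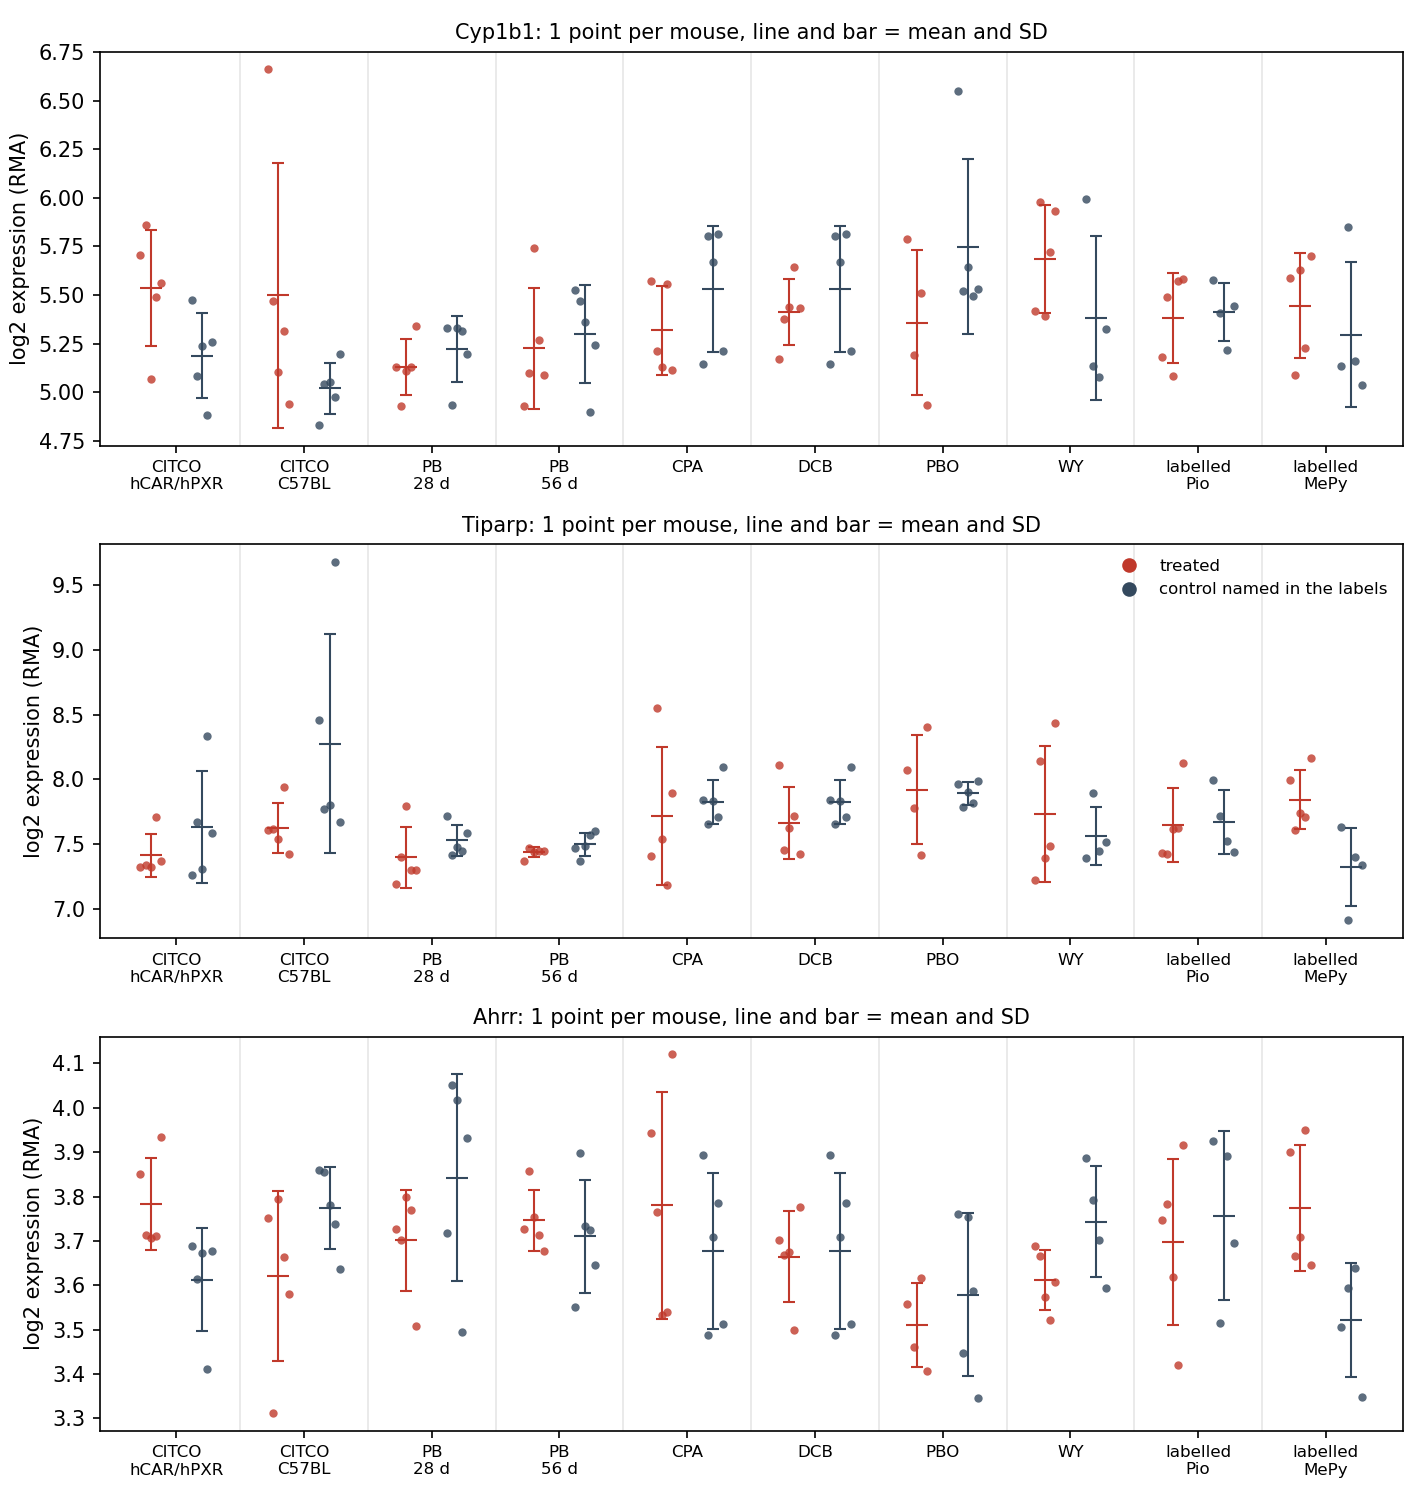
Log2 expression of Cyp1b1, Tiparp and Ahrr in each mouse, treated groups in red to the left of the control named in the labels in blue, with the mean and SD as line and bar (n = 4 or 5). Red and blue overlap in nearly every pair, and the highest Tiparp value, 9.68, belongs to a control mouse of Co4.

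Tiparp, the receptor's ADP-ribosylating repressor, passed in no comparison of a treated group either. In livers labelled MePy it was 8.0, 7.61, 7.74, 7.71 and 8.17, against 7.63, 6.91, 7.40 and 7.34 in Co3. Among the treated, 4 of 5 were above all controls and mouse 2 was just inside them. The difference was 0.52 ± 0.22 (limma adjusted p = 0.629), and its other probe sets gave 0.52 and 0.53. In CITCO C57BL livers Tiparp was 7.61, 7.61, 7.54, 7.94 and 7.42, against 8.46, 7.77, 7.80, 9.68 and 7.67 in Co4. Here 4 of 5 CITCO mice were below all controls, the difference was -0.65 ± 0.21 (adjusted p = 0.838), and without Co4 mouse 4 it was -0.30.

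Co4 mouse 4 stood out in all 3 Tiparp probe sets, at 9.68, 9.31 and 7.58, where the other Co4 mice read 7.67 to 8.46, 6.66 to 7.33 and 5.15 to 5.96. In the same mouse Ahr, the receptor gene itself, was 11.50, against 9.47 to 10.07 in the other Co4 mice, and the acute phase list averaged 13.50, the highest of that cohort. Within groups, the deviations of Tiparp and Ahr from their group means correlated at r = 0.517 over 91 mice, a description of arrays that share their normalisation. Co4 mouse 4 is among these mice, and the value without it was not computed. The same measure for Ahr with Cyp1a1, Cyp1a2, Cyp1b1 and Ahrr lay between -0.123 and -0.0227. The genes most like Tiparp over the group means were Socs3 (r = 0.732), Nfkbiz (0.681) and Mt2 (0.660), of which Socs3 and Mt2 belong to the acute phase list. The dimmer Tiparp probe sets did not always follow the brightest: with WY the 3 gave 0.17, 0.70 and -0.12, and with PBO 0.03, -0.59 and -0.16, none of them called.

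Ahrr, the repressor that competes for ARNT, was the dimmest of the 5. Its groups did not overlap in 2 comparisons. In hCAR/hPXR mice it was 3.85, 3.71, 3.71, 3.71 and 3.93 with CITCO, against 3.69, 3.61, 3.67, 3.41 and 3.68 with CMC, where 2.02% of all genes had groups that did not overlap. In livers labelled MePy Ahrr was 3.90, 3.67, 3.71, 3.95 and 3.64, against 3.51, 3.59, 3.64 and 3.35 in Co3, where 2.58% of all genes did. The lowest liver labelled MePy and the highest Co3 liver were level to 2 decimals. Neither difference passed, at 0.17 ± 0.10 (limma adjusted p = 0.766) and 0.25 ± 0.10 (adjusted p = 0.572). In PBO livers, where Cyp1a1 and Cyp1a2 rose, Ahrr averaged 3.51 ± 0.09, against 3.58 ± 0.18 in Co2 (SD, n = 4 and 5). The genes most like Ahrr were Jam2 (r = 0.726), Ednrb (0.665) and Nrbf2 (0.659).

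Control cohorts given the same vehicle were controls of injected (Co2 and Co4), gavaged (Co1 and Co5) and fed (Co3) treatments, and the labels do not give a route for the controls themselves. Over the 5 C57BL CMC cohorts a limma F test called Tiparp (adjusted p = 0.00404) and Cyp1b1 (adjusted p = 0.0318). That is 2 of the 5 genes, where 33.2% of all genes were called. With every probe set tested, the dimmer Cyp1b1 probe sets were not called (limma F test, adjusted p = 0.993 and 0.586). Of the dimmer Tiparp probe sets 1 was called (adjusted p = 1.03e-05) and 1 was not (0.0604). Tiparp means spanned 0.95 in log2, between 8.28 ± 0.84 in Co4 and 7.32 ± 0.30 in Co3, and Cyp1b1 means spanned 0.73, between 5.75 ± 0.45 in Co2 and 5.02 ± 0.13 in Co4. In the brightest probe set, Co4 and Co2 (7.89 ± 0.09) were the 2 highest cohorts in Tiparp. They also had the highest acute phase list means, 12.82 and 11.92, beside 10.66 to 11.18 in the other cohorts. The dimmer Tiparp probe sets also placed Co4 highest, at 7.47 and 5.91, but not Co2 next. There Co2 read 6.14 and 5.15, below Co3 at 6.42 and 5.34. Route, cohort and acute phase level cannot be told apart here. Without Co4 mouse 4 neither gene passed (adjusted p = 0.0584 for Tiparp and 0.0594 for Cyp1b1), and Cyp1b1 also lost its call without Co2 mouse 1 (0.206) or Co4 mouse 1 (0.0763). Cyp1a2 means spanned 0.47 (adjusted p = 0.166). Neither the CMC mice of the 2 strains, nor H2O at 56 and 28 days, nor CO and H2O at 28 days differed in any of the 5 genes, where 0.126%, 0.033% and 0.115% of all genes were called.

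Few genes of the receptor's machinery were called, as among all genes. Ahr passed in none of the 10 comparisons, and its largest difference was 0.52 ± 0.23 with PB at 56 days (limma adjusted p = 0.648). There Ahr was 10.27, 10.51, 10.46, 10.48 and 10.28 with PB, against 9.58, 9.63, 9.82, 9.60 and 10.77 in H2O, where mouse 5 was above all PB mice. Arnt, the partner of AhR, passed in none, and came nearest with WY at 0.32 ± 0.11 (limma adjusted p = 0.0589). All 5 WY mice were above Co1 in Arnt, where 9.17% of all genes had groups that did not overlap. Of 11 measured genes of 14 listed as pathway components, Ncoa3, a coactivator, fell by 0.67 ± 0.17 with CPA (adjusted p = 0.00892), and Sp1, a transcription factor, fell by 0.36 ± 0.12 with WY (adjusted p = 0.0317). Each was 1 of 11, where 5.32% of all genes were called with CPA and 10.6% with WY. In the other 8 comparisons 0 of 11 were called, where between 0.0055% and 3.83% of all genes were. The median log2 difference of the list lay between -0.18 and 0.08.

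Other genes known to respond to AhR were measured for 11 of 17 listed, and many of them also answer other receptors. Nqo1, a quinone reductase under AhR and NRF2, was 9.36, 8.94, 8.15, 8.77 and 9.39 in DCB livers, against 7.13, 7.09, 7.51, 6.41 and 6.44 in CO. All DCB livers were higher, where 4.28% of all genes had groups that did not overlap. The rise of 2.00 ± 0.24 (limma adjusted p = 3.24e-09) was the only call of Nqo1. In PBO livers, where Cyp1a1 rose, Nqo1 differed by 0.30 ± 0.26 (adjusted p = 0.69). With DCB 4 of 11 rose and 0 fell, where 3.83% of all genes were called. The 4 also take in Gsta2, a glutathione S-transferase, at 2.23 ± 0.38 (limma adjusted p = 2.89e-05) and Cd36, a fatty acid translocase also under PPARs, at 1.42 ± 0.32 (adjusted p = 0.00248).

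With PB at 28 days 2 of 11 rose, Gsta2 by 2.00 ± 0.38 (limma adjusted p = 0.00067) and Ugdh, which makes UDP-glucuronate, by 0.59 ± 0.14 (adjusted p = 0.00954). At 56 days Ugdh alone rose, by 0.75 ± 0.14 (adjusted p = 0.000226). With PBO 2 of 11 rose, Cd36 by 1.90 ± 0.34 and Ugdh by 0.80 ± 0.14 (adjusted p = 0.000349 for each). With WY Cd36 rose by 2.69 ± 0.34 (adjusted p = 5.06e-09) and Slc46a3, a lysosomal transporter, fell by 0.72 ± 0.21 (adjusted p = 0.0162). In livers labelled MePy Cd36 was higher by 1.76 ± 0.34 (adjusted p = 0.00233), and with CPA, with CITCO in either strain and in livers labelled Pio 0 of 11 were called. Of all genes 0.967% were called with PB at 28 days, 0.566% at 56 days, 0.808% with PBO, 10.6% with WY and 0.181% in livers labelled MePy. With CPA 5.32% were called, with CITCO 0.0989% in hCAR/hPXR and 0.0055% in C57BL livers, and 0.022% in livers labelled Pio. The list's median lay between -0.08 and 0.16 over the 10 comparisons. Gsta2 has a near-identical copy, Gsta1, that its probe set could also bind, and this was not tested.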

How the data were processed

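Liver RNA of 91 mice was hybridised to Affymetrix mouse arrays, 1 array per mouse. The deposited table holds log2 expression values made by RMA, per the submitters' processing notes, which give no version. RMA corrects background, normalises all arrays together and summarises probes, so values of different mice are not fully independent. The table has 45037 probe sets, with values between 2.61 and 15.3 and array medians between 5.18 and 5.36. The platform annotation gives 34945 probe sets a single symbol, 932 several and 9160 none, and only the first kind was used, with the probe set of highest mean standing for each of 18193 genes. Groups were taken from the sample titles and labels.

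A limma model (version 3.58.1, R 4.3.3) with a mean per group was fitted to all 91 arrays (72 residual degrees of freedom), with empirical Bayes moderation and a mean-variance trend. P-values were two-sided and adjusted by Benjamini-Hochberg over all 18193 genes for each comparison, and adjusted p below 0.05 was the threshold. All adjusted p values in the text come from limma. The procedure was run on simulated data with independent normal noise and, for each gene, the same SD in every group. That simulation cannot speak to groups of unequal spread, such as the PBO group in Cyp1a1, or to arrays normalised together. Figures were drawn with matplotlib 3.10.9 in Python 3.11.15. Promoter windows were read from RefSeq tables of GRCm38.p6.

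The 5 genes and the gene lists were chosen with earlier results of these data known. Named beside them were, by rule, Ahr, Arnt and Nqo1, and up to 3 called genes with the largest change per AhR list and comparison. Also by rule came the 3 genes whose group means correlated best with each of the 5. These were taken from genes with an SD of group means of at least 0.3. The reference genes set by rule were Cyp2b10, Cyp3a11, Cyp2e1 and Glul. Cyp2c37, Cyp2c55, Gstm3, Fabp4 and Cidec were named after their values had been seen. So were Cd36 and Ugdh in single PBO mice and the called members of the perivenous and hepatocyte lists. Replicate numbers were checked for pairing: deviations of same-numbered mice from their group means correlated between -0.32 and 0.22, so the numbers were not taken to pair mice. Alternatives tried were no trend, robust moderation, array weights, a filter on dim genes, median centring, a 2-fold minimum, a replicate block, the mean of all probe sets, only the compared groups, every probe set, the pooled CMC cohorts as control, and leaving out each mouse.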

Additional observations from a re-analysis of the deposited data

Results flagged for a closer look

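Of 95 combinations of gene and group tested for 1 mouse far from the others of its group, 9 stood out, where chance alone flags about 5%, or 1 in 20 groups. For Cyp1a2, CITCO hCAR/hPXR mouse 2 lay at 13.05 below the others at 13.36 to 13.49, and WY mouse 5 at 11.11 below the others at 12.13 to 12.40. Also for Cyp1a2, Co1 mouse 3 lay at 13.26 above the others at 13.01 to 13.05, and Co3 mouse 2 at 11.88 below the others at 12.85 to 12.96. For Cyp1b1, Co2 mouse 1 lay at 6.55 above the others at 5.50 to 5.65, and Co3 mouse 2 at 5.85 above the others at 5.04 to 5.16, so the same Co3 mouse stood apart in both genes. For Tiparp, CITCO hCAR/hPXR mouse 4 lay at 7.71 above the others at 7.32 to 7.37, and the mouse numbered 5 among the livers labelled Pio at 8.12 above the others at 7.43 to 7.63. For Ahrr, CMC hCAR/hPXR mouse 4 lay at 3.41 below the others at 3.61 to 3.69.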

How the results depend on the processing

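Apart from leaving out a mouse, the alternatives gave 174 counts of called genes among the 5, of which 163 stayed within 1.5 times, 9 were lower and 2 higher. They gave 656 values for single genes, of which 645 kept their call, 8 lost it and 3 gained one. Direction was compared only for differences called in the main fit or in the alternative, and 0 of these reversed. Signs of differences called in neither were not compared, and F tests carry no direction. In PBO livers the count of 2 became 1 with array weights (Cyp1a2 0.72, limma adjusted p = 0.114), 1 with a 2-fold minimum and 0 with only the compared groups in the fit (adjusted p = 0.664 for Cyp1a1 and 0.0817 for Cyp1a2). With a 2-fold minimum the count was 0 for PB at 28 days, PB at 56 days and DCB. Over the C57BL CMC cohorts the count of 2 became 1 with array weights, 1 with the mean of all probe sets and 0 with only the compared groups, and Ahrr gained a call with arrays centred on their medians (adjusted p = 0.0369). With the mean of the 5 CMC cohorts as control the count was 1 for CITCO in C57BL livers and 1 for livers labelled MePy, both by Cyp1a2. These cohorts differed from each other in 33.2% of all genes, and the share of all genes called against their mean is not given here. Leaving out each mouse in turn gave 1 to 2 for PBO and 0 to 2 for the cohorts, and changed no other count. The exact permutation test of Cyp1a1 in PBO livers (p = 0.0952), added after the data had been seen, did not pass. With the replicate block no call among the 5 genes changed (Cyp1a2 with PB at 28 days 0.84, adjusted p = 0.00423). The filter on dim genes removed Cyp1a1, Cyp1b1 and Ahrr and gave them no value. The causes of these changes were not tested beyond what each alternative changes by its construction. Signal near the low end of the scale limits what can be seen of Ahrr, Cyp1b1 and, outside 2 PBO mice, Cyp1a1, and groups of 4 or 5 mice limit the precision of all values.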
